A study of Mus musculus with 4 samples.

Results

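The genes described here are 10 genes of MHC class II antigen presentation and of the skin cells that carry it, matched by gene symbol: *H2-Aa*, *H2-Ab1*, *H2-Eb1*, *H2-DMa*, *H2-DMb1*, *Cd74*, *Ciita*, *Cd207*, *Itgax* and *Zbtb46*. All 10 were found among the 24346 gene symbols of each file, and all 10 passed a filter on low values (a mean of at least 0.1 FPKM over the libraries) that kept 15896 genes. They were measured by RNA sequencing of dorsal skin from male C57BL/6 mice, 8 weeks old when the diets began. Every mouse received a high-fat, high-cholesterol, high-sucrose diet with bile salt that induces steatohepatitis (NASH diet) for 3 weeks and then imiquimod (IMQ) cream, an agonist of Toll-like receptor 7 that induces psoriasis-like dermatitis, for 1 day. The Cont-IMQ group (2 libraries, replicates 1 and 2) received the NASH diet alone, and the 7KC-IMQ group (2 libraries, replicates 1 and 2) received it with 7-ketocholesterol (7KC), an oxidized cholesterol. No skin without IMQ was analysed here, so the values are levels in IMQ-treated skin and not responses to IMQ.

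MHC class II molecules are pairs of an alpha and a beta chain that display peptides from engulfed material to CD4+ T cells. The chains assemble with the invariant chain encoded by *Cd74*, and H2-DM, built from *H2-DMa* and *H2-DMb1*, exchanges the last invariant chain fragment for peptide inside endosomes. *Ciita* encodes the transactivator that switches on class II genes, without binding DNA itself, through factors seated on the X and Y boxes of their promoters. In the epidermis the resident class II cells are Langerhans cells, which carry langerin (*Cd207*), while *Itgax* (CD11c) and *Zbtb46* mark dendritic cells more widely.

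The promoters of 3 genes are shown, 2 class II chains and the Langerhans cell marker, so that the letters of class II promoters can be read beside those of a marker of the cells that carry class II. Each line gives the bases from 150 to 1 before the start of the gene, 5′ to 3′ on the strand of the gene, from RefSeq (GRCm38.p6). Capitals mark matches to the Y box (CTGATTGG), to the core of the X box (AACNGATG) or to a cAMP response element (TGACGTCA). The stretches are chr17:34287824-34287973 on the minus strand for *H2-Aa*, chr17:34305717-34305866 on the plus strand for *H2-Eb1* and chr6:83677858-83678007 on the minus strand for *Cd207*.
H2-Aa: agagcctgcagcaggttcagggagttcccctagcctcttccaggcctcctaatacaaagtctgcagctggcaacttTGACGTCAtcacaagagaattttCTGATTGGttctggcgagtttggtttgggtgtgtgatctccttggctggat
H2-Eb1: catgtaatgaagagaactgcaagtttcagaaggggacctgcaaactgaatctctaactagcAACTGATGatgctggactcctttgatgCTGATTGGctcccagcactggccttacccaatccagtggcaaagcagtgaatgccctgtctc
Cd207: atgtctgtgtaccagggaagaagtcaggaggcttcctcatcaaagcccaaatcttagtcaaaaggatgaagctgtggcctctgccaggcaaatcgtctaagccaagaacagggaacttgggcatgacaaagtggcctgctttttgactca

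Counting back from −1 at the last base before the start, the Y box letters began at −51 in *H2-Aa* and at −62 in *H2-Eb1*. In *H2-Eb1* the X box core lay upstream at −89, and in *H2-Aa* the cAMP response element letters lay at −74. The letters searched for the X box core were not in the *H2-Aa* window, nor those of the cAMP response element in the *H2-Eb1* window. Among 32544 promoter windows of 300 bases, from 250 before to 50 after a start, 4.07% held the Y box letters, 2.32% the X box core and 1.80% the cAMP response element, on either strand. A RefSeq window was found for 7 of the 10 genes, and none was given for *H2-Ab1*, *Cd74* or *Ciita*. The *H2-DMb1* window held the X box core at −92 and, at −61, the shorter letters ATTGG, which lie inside the Y box and occur in 37.4% of windows. *Itgax* and 1 of the 2 *H2-DMa* windows held only ATTGG, at −178 and −198, and *Cd207* and *Zbtb46* held none of the 4 motifs. The cAMP response element was added to the search after the sequence had been read. A match is a description of letters and was not tested as a binding site.

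The files give FPKM, fragments scaled to the exon length of the gene and to the mapped fragments of the library, so levels can be compared between genes. The invariant chain gene *Cd74* had the highest level, at 534 and 371 FPKM in Cont-IMQ and 539.9 and 391 FPKM in 7KC-IMQ, replicate 1 first here and throughout. The classical chains followed in the order *H2-Ab1*, *H2-Aa*, *H2-Eb1*, and this order of 4 genes held in each of the 4 libraries. A second tier was formed by *H2-DMb1* (19.8 to 27.9 FPKM), *Cd207* (18.8 to 24.3 FPKM) and *H2-DMa* (13.9 to 22.5 FPKM), whose ranges overlapped. The lowest were *Ciita* (1.40 to 3.36 FPKM), *Itgax* (1.49 to 3.07 FPKM) and *Zbtb46* (1.21 to 1.54 FPKM), again with overlapping ranges. Skin is a mixture of cells, and in such bulk samples fewer cells of a type and less RNA per cell cannot be told apart.

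**Figure D1:**
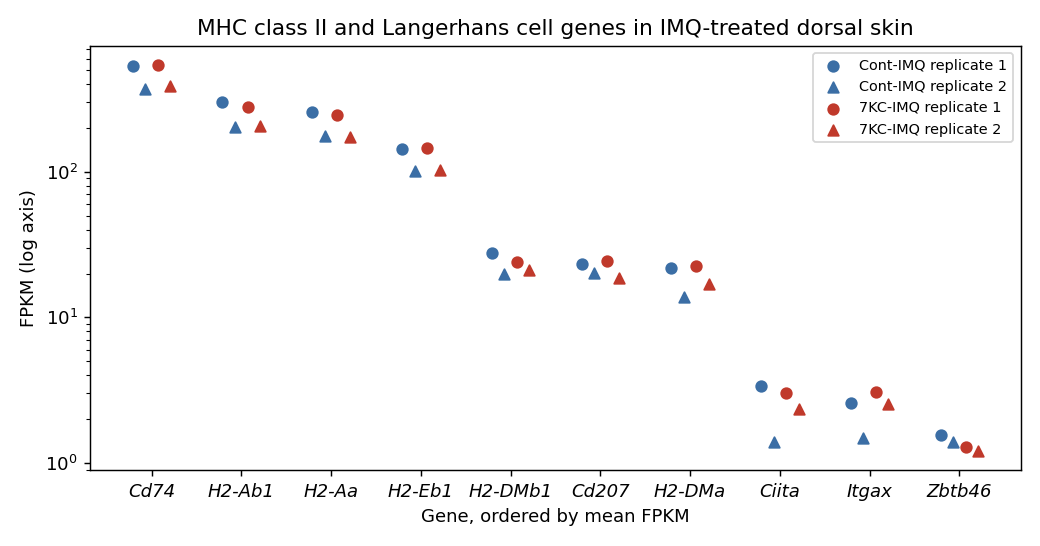
FPKM (log axis) of the 10 genes in each of the 4 libraries, ordered by mean; blue marks Cont-IMQ, red 7KC-IMQ, circles replicate 1 and triangles replicate 2. *Cd74* lies at the top (371 to 539.9 FPKM) and *Zbtb46* at the bottom (1.21 to 1.54 FPKM), and the circles lie above the triangles of the same color for all 10 genes.

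The first question was whether 7KC in the diet was accompanied by another level of the class II chains in IMQ-treated skin. None of the chains separated the groups. *H2-Aa* (ENSMUSG00000036594, chr17:34282744-34287823, minus strand, mm10), the alpha chain of the I-A molecule, had 257 and 175 FPKM in Cont-IMQ and 247 and 174 FPKM in 7KC-IMQ. Both groups thus held 1 high and 1 low library, and the group means were 216 ± 58.0 and 211 ± 51.7 FPKM (SD, n = 2). The difference between the groups (7KC-IMQ minus Cont-IMQ on the scale of log2(FPKM + 1)) was −0.035 with a standard error of 0.26, and its 95% interval ran from −0.71 to 0.64 (limma, adjusted p = 0.970).

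*H2-Ab1*, the beta chain of I-A, lies beside it (chr17:34257689-34269419, plus strand). It had 300.0 and 202 FPKM in Cont-IMQ and 279.7 and 207 FPKM in 7KC-IMQ. As for *H2-Aa*, both replicate 1 libraries lay above both replicate 2 libraries, and the groups overlapped. The difference was −0.035 ± 0.25 (SE, 95% interval −0.68 to 0.61, limma adjusted p = 0.967). *H2-Eb1*, the beta chain of I-E, lies downstream on the same chromosome (chr17:34305867-34316674, plus strand) and had 143 and 102 FPKM in Cont-IMQ and 145 and 103 FPKM in 7KC-IMQ. These are nearly the same pair of values in each group, and the difference was 0.025 ± 0.23 (SE, 95% interval −0.59 to 0.64, limma adjusted p = 0.978).

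The chaperones of peptide loading showed the same picture. *Cd74* differed by 0.046 ± 0.24 (SE, 95% interval −0.60 to 0.69, limma adjusted p = 0.954), with group means of 452 ± 115 and 465 ± 105.5 FPKM (SD, n = 2). *H2-DMa* (chr17:34119541-34139101, plus strand), the alpha chain of H2-DM, had 22.0 and 13.9 FPKM in Cont-IMQ and 22.5 and 17.1 FPKM in 7KC-IMQ. Its lowest value was in Cont-IMQ replicate 2, the groups overlapped, and the difference was 0.16 ± 0.25 (SE, limma adjusted p = 0.822). *H2-DMb1* (chr17:34153072-34160230, plus strand), the beta chain of H2-DM, had 27.9 and 19.8 FPKM in Cont-IMQ and 24.2 and 21.2 FPKM in 7KC-IMQ. Both 7KC-IMQ values lay between the Cont-IMQ values, with a difference of −0.051 ± 0.18 (SE, limma adjusted p = 0.931). Of the 75-base windows of *H2-DMb1* transcripts, 15.8% also occur in its neighbor *H2-DMb2*, so a share of its reads could have been assigned to either gene.

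*Ciita* (chr16:10480059-10528418, plus strand), the transactivator, had 3.36 and 1.40 FPKM in Cont-IMQ and 3.00 and 2.35 FPKM in 7KC-IMQ. The Cont-IMQ libraries held both the highest and the lowest value, and the difference was 0.18 ± 0.31 (SE, 95% interval −0.65 to 1.00, limma adjusted p = 0.838). At levels this low the log2(FPKM + 1) scale understates a fold change.

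*Cd207* (chr6:83671215-83677857, minus strand), the gene of langerin, the lectin of Birbeck granules, had 23.3 and 20.2 FPKM in Cont-IMQ and 24.3 and 18.8 FPKM in 7KC-IMQ. Both Cont-IMQ values lay between the 7KC-IMQ values. With a single annotated transcript, the values correspond to about 468, 407, 526 and 372 reads in the same order, as estimated from the steps in the low values. The means were 21.8 ± 2.18 and 21.6 ± 3.93 FPKM (SD, n = 2) and the difference was −0.022 ± 0.15 (SE, 95% interval −0.42 to 0.38, limma adjusted p = 0.966), the narrowest interval after that of *Zbtb46*.

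*Itgax* (chr7:128129547-128150657, plus strand), the CD11c integrin chain of dendritic cells and some macrophages, had 2.56 and 1.49 FPKM in Cont-IMQ and 3.07 and 2.55 FPKM in 7KC-IMQ. The lower 7KC-IMQ library fell just under the higher Cont-IMQ library, so the groups overlapped by 1 pair of nearly equal values. The difference of 0.35 ± 0.21 (SE, 95% interval −0.20 to 0.90) had the smallest p of the 10 genes (limma, adjusted p = 0.533), and under quantile normalization the groups did not overlap. Of the 75-base windows of *Itgax* transcripts, 5.01% also occur in *Itgad*, and no such window was found for the other 8 genes beside *H2-DMb1*.

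*Zbtb46* (chr2:181387762-181459426, minus strand), a zinc finger factor of conventional dendritic cells that endothelial cells express as well, had 1.54 and 1.39 FPKM in Cont-IMQ and 1.28 and 1.21 FPKM in 7KC-IMQ. It was the only one of the 10 genes whose groups did not overlap. The means were 1.46 ± 0.112 and 1.24 ± 0.0494 FPKM (SD, n = 2), and the difference of −0.14 ± 0.11 (SE, 95% interval −0.42 to 0.15) did not pass the test (limma, adjusted p = 0.632). Under quantile normalization its groups overlapped.

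Counted over the 10 genes, 0 passed an adjusted p of 0.05 in limma, against 0.00629% of all genes tested (1 gene), and 0 had an unadjusted p under 0.05, against 13.0% of all genes. Of the 10 genes, 0 were higher in 7KC-IMQ without overlap, against 23.9% of all genes, and 1 was lower without overlap, against 22.9%. The median difference was 0.0012 over the 10 genes and −0.0056 over all genes tested. With 2 libraries per group, the 95% intervals of *H2-Aa*, *H2-Ab1*, *H2-Eb1* and *Cd74* reached about 0.6 to 0.7 on the log2 scale in both directions. Differences up to that size thus lay within them. The interval of *H2-DMa* ran from −0.51 to 0.82 and that of *H2-DMb1* from −0.53 to 0.43. Passing the adjusted threshold over all genes tested asks for more than an interval that leaves out 0. An exact permutation test of 2 against 2 libraries cannot give a p below 0.333. The labels do not say whether the libraries of a group came from separate mice, so the p-values measure only the spread between these samples.

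**Figure D2:**
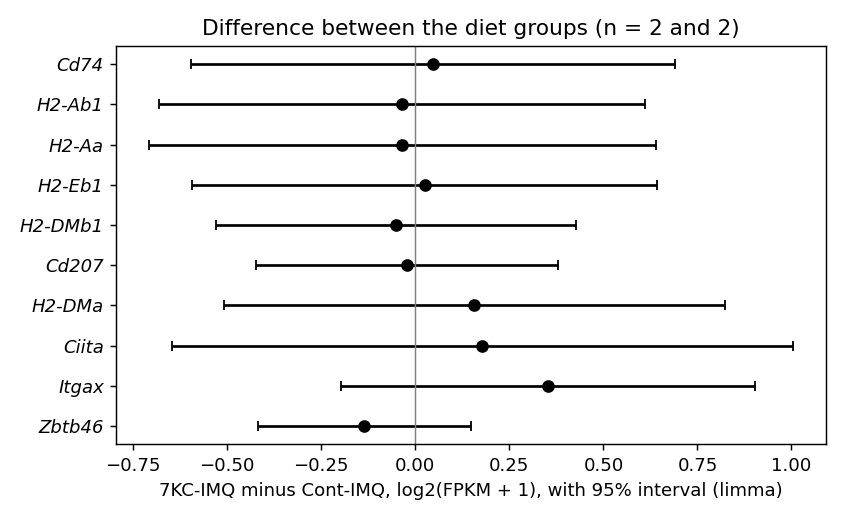
Difference between 7KC-IMQ and Cont-IMQ (n = 2 and 2) on the log2(FPKM + 1) scale for each of the 10 genes, with the 95% interval from limma. All 10 intervals include 0, that of *Ciita* is the widest (−0.65 to 1.00) and that of *Zbtb46* the narrowest (−0.42 to 0.15).

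Next, the spread within the groups was described, since for the class II genes it was larger than the difference between them. Replicate 1 exceeded replicate 2 in both groups for 10 of the 10 genes, against 24.0% of all genes tested. It did so by at least 0.3 on the log2 scale in both groups for 5 genes (*H2-Aa*, *H2-Ab1*, *H2-Eb1*, *H2-DMa* and *Cd74*), against 1.37% of all genes. These counts were chosen after the values had been seen. The pattern was not particular to class II. Replicate 1 also exceeded replicate 2 in both groups for 9 of 15 MHC class I genes, with 0 below in both. For T cell genes it did so in 5 of 10, with 0 below, and for Langerhans cell genes in 8 of 18, with 5 below. In FPKM, *H2-Aa* was 1.47-fold higher in replicate 1 than in replicate 2 of Cont-IMQ and 1.42-fold higher in 7KC-IMQ. *H2-Ab1* gave 1.48-fold and 1.35-fold, and *H2-Eb1* gave 1.40-fold and 1.41-fold. The mean of *H2-Aa*, *H2-Ab1*, *H2-Eb1* and *Cd74*, centred per gene on the log2 scale, lay at 0.26 and −0.26 in Cont-IMQ and at 0.24 and −0.24 in 7KC-IMQ. The 2 libraries of a group thus stood about 0.5 apart while the group means differed by 0.00025. Nothing in the labels says that libraries with the same number shared a litter, a batch or a day.

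Not every one of the 10 genes followed the chains closely. *Cd207* differed between replicates 1 and 2 by 0.20 in Cont-IMQ and 0.36 in 7KC-IMQ on the log2 scale, less than the 3 classical chains in both groups. *Ciita* differed by 0.86 in Cont-IMQ and by 0.25 in 7KC-IMQ, and *Itgax* by 0.52 and 0.20. In both of these genes Cont-IMQ replicate 2 was the library that stood lowest, and *H2-DMb1* likewise had a wider gap in Cont-IMQ (0.47) than in 7KC-IMQ (0.18).

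**Figure D3:**
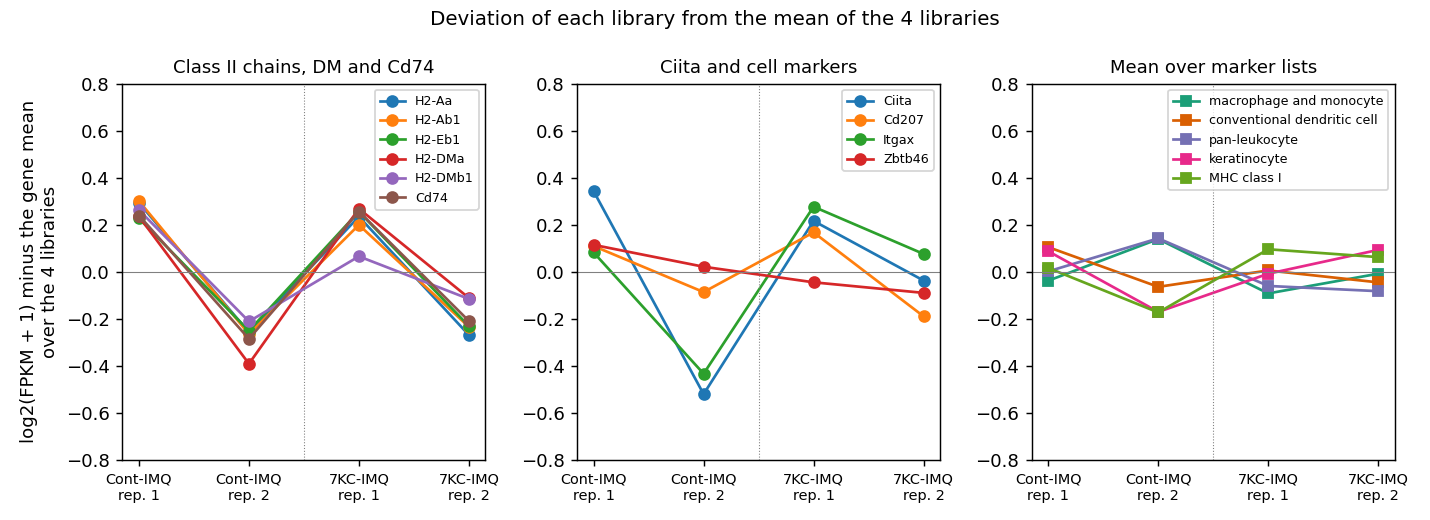
Deviation of each library from the mean of the 4 libraries on the log2(FPKM + 1) scale, for the class II chains, H2-DM and *Cd74* (left), for *Ciita* and the cell markers (middle) and as the mean of 5 gene lists (right); lines only join the points of 1 gene or list. The genes on the left are above 0 in both replicate 1 libraries and below 0 in both replicate 2 libraries, and of the lists the macrophage list was below 0 in Cont-IMQ replicate 1 (−0.038) and above 0 in Cont-IMQ replicate 2 (0.14).

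Ratios between the genes remove the level that they share. *H2-Aa* was 0.858 and 0.867 of *H2-Ab1* in Cont-IMQ and 0.884 and 0.842 of it in 7KC-IMQ, a range of 0.842 to 0.884 over the 4 libraries. *Cd207* was 0.0778 and 0.10 of *H2-Ab1* in Cont-IMQ and 0.0870 and 0.0908 of it in 7KC-IMQ, with no separation of the groups. The ratio of *H2-DMa* to *H2-DMb1* was 0.789 and 0.702 in Cont-IMQ and 0.931 and 0.805 in 7KC-IMQ. The ratio of *H2-Ab1* to *Cd74* was 0.562 and 0.546 in Cont-IMQ and 0.518 and 0.529 in 7KC-IMQ. Both of the last ratios separated the groups, the former higher and the latter lower in 7KC-IMQ, with the smallest p that the exact permutation test can give (0.333). Against *Ptprc*, the CD45 gene of all leukocytes, *H2-Ab1* was 30.0-fold and 20.4-fold higher in Cont-IMQ and 29.6-fold and 22.4-fold higher in 7KC-IMQ. The part of the leukocyte content in the gap between the replicates was not tested.

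The genes whose pattern over the 4 libraries lay closest to the mean of *H2-Aa*, *H2-Ab1*, *H2-Eb1* and *Cd74* were sought among 13106 genes with a mean of at least 1 FPKM, by the Euclidean distance between centred log2(FPKM + 1) values. The closest was *H2-M2* (distance 0.0502), a class I-like gene of the MHC, with 12.2 and 7.95 FPKM in Cont-IMQ and 11.7 and 7.88 FPKM in 7KC-IMQ. The next were *Pdgfrl* (0.0661), *Nkain4* (0.0829), *Gstm6* (0.0918) and *Msl3l2* (0.115). Among the other genes described here, *H2-DMa* ranked 43, *H2-DMb1* 72, *Cd207* 146, *Ciita* 526, *Itgax* 1347 and *Zbtb46* 2658. For *Cd207*, compared with 13109 genes, the closest were *Kdelr3* (0.0263), *Wdfy1* (0.0308), *Ecscr* (0.0334), *Arf2* (0.0401) and *Zfp870* (0.0440). With 4 libraries, such closeness is a description of these libraries.

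Other class II genes were examined as a list of 11 chains, which includes *Cd74* and the 5 H2 genes above. *H2-Ea-ps* was listed at 0 in every library, and C57BL/6 mice are known to lack a functional I-E alpha gene. Of the 10 chains tested, 1 was higher in 7KC-IMQ without overlap, against 23.9% of all genes tested, 0 were lower, against 22.9%, and 9 overlapped, and the median difference was 0.049. The direction of the list rested on single libraries. Its median was 0.26 without Cont-IMQ replicate 1 and −0.19 without Cont-IMQ replicate 2, and −0.11 without 7KC-IMQ replicate 1 and 0.27 without 7KC-IMQ replicate 2. The higher one was *H2-Oa*, a chain of the H2-DM inhibitor H2-O, with 0.39 and 0.23 FPKM in Cont-IMQ and 0.65 and 0.47 FPKM in 7KC-IMQ, levels close to the limit of the filter on low values. Replicate 1 exceeded replicate 2 in both groups for 9 of the 10 chains, and *H2-DMb2*, the second beta chain of H2-DM, had 13.9 and 6.62 FPKM in Cont-IMQ and 14.5 and 11.7 FPKM in 7KC-IMQ.

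The route from interferon gamma to *Ciita* and the factors seated on class II promoters were examined upstream of the chains. In none of the lists described from here on did a gene pass the adjusted threshold of limma. Their counts without overlap stand against 23.9% of all genes tested higher and 22.9% lower. Counts with 1 library left out stand against larger shares, 33.2% to 38.9% of all genes higher and 33.5% to 39.1% lower. Of 8 factors (RFX and NF-Y subunits, *Creb1* and *Ciita*), 2 were higher and 1 was lower in 7KC-IMQ without overlap, with a median of 0.065, which was 0.032 without Cont-IMQ replicate 2 and 0.021 without 7KC-IMQ replicate 2. *Rfx5*, the largest RFX subunit gene, had 4.13 and 4.86 FPKM in Cont-IMQ and 4.01 and 3.78 FPKM in 7KC-IMQ. Of 7 genes tested on the interferon gamma route, 4 were higher without overlap, against 23.9% of all genes, and 0 lower, with a median of 0.17. *Ifng* itself had only 0.065 and 0.066 FPKM in Cont-IMQ and 0.183 and 0.066 FPKM in 7KC-IMQ. With all 4 libraries it fell under the filter on low values, and it enters among the 8 genes of the next count. Without Cont-IMQ replicate 2 the median was 0.098, with 6 of 8 genes higher and 1 lower. *Socs1*, a feedback inhibitor of JAK kinases, had 9.71 and 5.94 FPKM in Cont-IMQ and 13.8 and 14.0 FPKM in 7KC-IMQ, a difference of 0.79 (limma, adjusted p = 0.356). *Ciita* itself overlapped between the groups, as given above.

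Genes that process antigen for class II were spread to both sides, with 2 of 8 higher, 2 lower and a median of −0.033, which was −0.18 without Cont-IMQ replicate 1, 0.088 without Cont-IMQ replicate 2, 0.0068 without 7KC-IMQ replicate 1 and −0.14 under quantile normalization. *Ctss*, the cathepsin that trims the invariant chain, had 162 and 168 FPKM in Cont-IMQ and 141 and 140.5 FPKM in 7KC-IMQ. *March8*, a ubiquitin ligase that can remove class II from the cell surface, had 20.6 and 18.3 FPKM in Cont-IMQ and 15.9 and 15.8 FPKM in 7KC-IMQ. Both were lower without overlap, with differences of −0.22 for *Ctss* and −0.28 for *March8*, and neither passed the adjusted threshold (limma, adjusted p = 0.365 for each). 

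MHC class I genes, which every nucleated cell carries, were examined beside class II. Of 15 genes tested, 10 were higher in 7KC-IMQ without overlap, against 23.9% of all genes, 0 were lower, against 22.9%, and the median was 0.16. Under quantile normalization, 3 of the 15 were higher without overlap and the median was 0.095. The median was 0.29 without Cont-IMQ replicate 1 and 0.057 without Cont-IMQ replicate 2, where 11 genes were higher and 2 lower without overlap. *Psmb9*, an immunoproteasome subunit, had 83.2 and 70.4 FPKM in Cont-IMQ and 93.5 and 99.7 FPKM in 7KC-IMQ, a difference of 0.33 (limma, adjusted p = 0.365). *H2-K1*, a classical class I heavy chain, had 1221 and 1137 FPKM in Cont-IMQ and 1277 and 1249.6 FPKM in 7KC-IMQ. Whether the class I and class II lists differ from each other in their response was not tested.

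Langerhans cell genes were examined as a list of 18, including *Cd207*. Of these, 5 were higher in 7KC-IMQ without overlap, 3 were lower and 10 overlapped, with a median of 0.0062, close to 0 and −0.019 under quantile normalization. Without 1 library at a time the median lay between 0.0024 (without 7KC-IMQ replicate 1) and 0.073 (without 7KC-IMQ replicate 2), and it was 0.048 without Cont-IMQ replicate 1 and 0.027 without Cont-IMQ replicate 2. *Cd1d1*, which presents lipids to NKT cells, had 4.40 and 4.69 FPKM in Cont-IMQ and 9.49 and 6.36 FPKM in 7KC-IMQ, a difference of 0.66 (limma, adjusted p = 0.356). *Cd24a*, a surface glycoprotein that Langerhans cells share with keratinocytes, had 146 and 139 FPKM in Cont-IMQ and 178 and 247 FPKM in 7KC-IMQ. *Epcam*, an adhesion molecule that Langerhans cells also share with epithelial cells, had 97.7 and 89.0 FPKM in Cont-IMQ and 101 and 98.1 FPKM in 7KC-IMQ. On the other side, *Clec4a2*, an inhibitory lectin receptor of myeloid cells, was lower without overlap, with 16.3 and 16.9 FPKM in Cont-IMQ and 13.1 and 14.9 FPKM in 7KC-IMQ, as were *Csf1r* and *Spi1*. The values of *Cd207*, which in this tissue is the more restricted marker, overlapped between the groups.

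Conventional dendritic cell genes were examined as a list of 18, including *Zbtb46* and *Itgax*. Of these, 2 were higher without overlap and 4 were lower, with a median of −0.025. The median was 0.042 without Cont-IMQ replicate 1, −0.14 without Cont-IMQ replicate 2, −0.054 without 7KC-IMQ replicate 1 and 0.0025 without 7KC-IMQ replicate 2. The higher ones were *Cd24a*, given above, and *Xcr1*, the chemokine receptor of type 1 dendritic cells, with 0.412 and 0.185 FPKM in Cont-IMQ and 0.527 and 0.433 FPKM in 7KC-IMQ. *Irf4*, a factor of type 2 dendritic cells, had 5.51 and 5.80 FPKM in Cont-IMQ and 4.11 and 3.15 FPKM in 7KC-IMQ. *Clec10a*, a galactose lectin of dermal dendritic cells and macrophages, had 17.3 and 21.3 FPKM in Cont-IMQ and 13.3 FPKM in both 7KC-IMQ libraries. *Dpp4*, the CD26 gene, which T cells and fibroblasts express as well, had 9.75 and 11.3 FPKM in Cont-IMQ and 7.17 and 7.05 FPKM in 7KC-IMQ. The differences were −0.53, −0.49 and −0.51 in this order, and none passed the threshold (limma, adjusted p = 0.356, 0.356 and 0.353).

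Genes of dendritic cell maturation and migration had a median of 0.18, with 7 of 16 higher in 7KC-IMQ without overlap, against 23.9% of all genes, and 1 lower. Without Cont-IMQ replicate 2 the median was 0.082, with 7 genes higher and 5 lower, and without Cont-IMQ replicate 1, 13 genes were higher and 1 lower. The largest difference of the list was that of *Il23a*, at 1.60 (limma, adjusted p = 0.265). Its values were 2.15 and 1.82 FPKM in Cont-IMQ and 7.92 and 8.13 FPKM in 7KC-IMQ. *Il12b*, the subunit shared by IL-12 and IL-23, had 1.41 and 0.855 FPKM in Cont-IMQ and 2.87 and 2.40 FPKM in 7KC-IMQ, a difference of 0.78 (limma, adjusted p = 0.354). *Cd274*, the inhibitory ligand PD-L1, had 16.9 and 14.6 FPKM in Cont-IMQ and 20.0 and 28.2 FPKM in 7KC-IMQ. *Ccr7*, the receptor that guides mature dendritic cells to lymph nodes, had 5.28 and 5.61 FPKM in Cont-IMQ and 5.83 and 4.92 FPKM in 7KC-IMQ, with overlap.

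**Figure D4:**
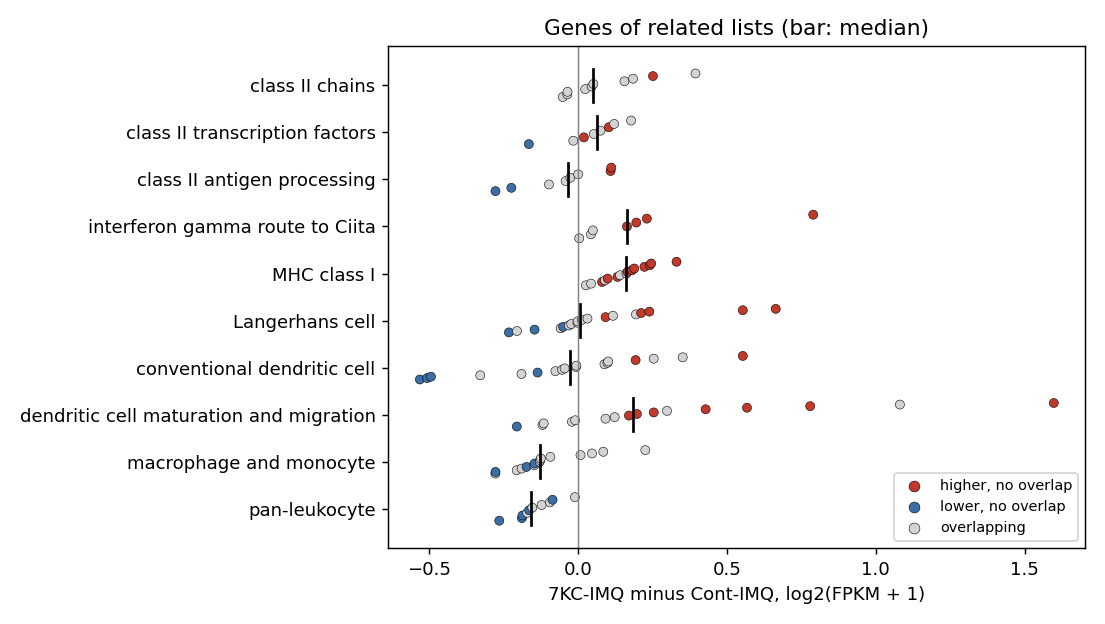
Difference between 7KC-IMQ and Cont-IMQ on the log2(FPKM + 1) scale for every tested gene of 10 gene lists; red points were higher and blue points lower without overlap between the groups, gray points overlapped, and the bar is the median of the list. The median lies at 0.049 for the class II chains, 0.16 for MHC class I, 0.0062 for Langerhans cells and −0.13 for macrophages and monocytes.

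Other cells in the skin carry class II as well, and their markers are given beside the class II values. The macrophage and monocyte list had 0 of 15 genes higher in 7KC-IMQ without overlap and 3 lower, against 23.9% and 22.9% of all genes, with a median of −0.13, and its summed level was 1029 and 1262 FPKM in Cont-IMQ and 985 and 1049 FPKM in 7KC-IMQ. Without Cont-IMQ replicate 2 this median was 0.013, with 3 genes higher and 5 lower. It was −0.22, with 2 genes higher and 12 lower, without Cont-IMQ replicate 1, and −0.058 without 7KC-IMQ replicate 1. Without 7KC-IMQ replicate 2 it was −0.18, with 1 gene higher and 9 lower. Under quantile normalization 0 genes were higher and 6 lower. Replicate 1 lay below replicate 2 in both groups for 9 of these 15 genes, against 25.4% of all genes tested, and above it for 3. Of the defining B cell markers, *Ms4a1*, *Pax5* and *Cr2* were listed at 0 in every library. The pan-leukocyte list had 0 of 10 genes higher and 5 lower without overlap, against 22.9% of all genes lower, with a median of −0.16. That median was −0.066, with 1 gene higher and 5 lower, without Cont-IMQ replicate 2. 

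The 2 Cont-IMQ libraries stood apart from each other in hair follicle genes, whose summed level over 18 genes was 136 FPKM in replicate 1 and 1673 FPKM in replicate 2, against 498 and 442 FPKM in 7KC-IMQ. The summed level of the class II chain list was 1298 and 892 FPKM in Cont-IMQ and 1275 and 926 FPKM in 7KC-IMQ. The part of the hair follicle content in the class II values was not tested. Keratin 5 (*Krt5*), which marks basal keratinocytes and so the labelled tissue, had 2544 to 3062 FPKM. Other keratinocyte genes were less even, and *Krt10* had 8444 and 4597 FPKM in Cont-IMQ and 5283 and 5553 FPKM in 7KC-IMQ. The summed level of 10 keratinocyte genes was 23920.5 and 15987.1 FPKM in Cont-IMQ and 18635.6 and 20646.6 FPKM in 7KC-IMQ. The part of the keratinocyte content in the class II values was not tested either. Estimated depths were 15170000 and 15200000 reads in Cont-IMQ and 16330000 and 14960000 reads in 7KC-IMQ.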

How the data were processed

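Dorsal skin RNA was sequenced in 4 libraries, grouped by their labels. Reads of 75 bases from 1 end were mapped to mm10 by the authors, who deposited 1 FPKM value per gene and library (Cufflinks). The submitters' processing notes name TopHat2 2.1.1, Bowtie2 2.2.8, SAMtools 0.1.18 and Cuffdiff 2.2.1. FPKM holds no read counts, so no count model was used.

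Values were transformed to log2(FPKM + 1) with no other scaling. Genes whose FPKM averaged at least 0.1 were compared by limma 3.58.1 in R 4.3.3 with a variance trend and Benjamini-Hochberg adjustment over 15896 genes. The procedure was tested on simulated data. Groups did not overlap where both libraries of one lay above both of the other. The 10 genes and all lists were chosen with earlier results of these data known. Named were the 10 genes and, per list, the 2 highest and up to 4 largest non-overlapping differences among genes averaging at least 1 FPKM, with a selection of these printed. Defining markers, *Epcam*, *Ccr7*, *Xcr1*, *Csf1r*, *Spi1*, *H2-Oa*, *H2-DMb2* and *H2-Ea-ps* were named beside that rule, with values seen.

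Depth was estimated from the low values of genes with 1 transcript, as the depth that brought most of them near whole reads. At that depth, 75.7% to 80.9% lay within 0.1 reads of a whole number. The estimate is thus the best of many depths tried, while 20% is the share by chance at 1 fixed depth. It covers counting error only. Coordinates and shared windows came from GENCODE M21 (GRCm38, the same assembly as mm10).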

Additional observations from a re-analysis of the deposited data

How the results depend on the processing

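The alternatives were a pseudocount of 0.1, other filters and scalings, a replicate block, no variance trend, and leaving out each library. Under every one, 0 of the 10 genes passed an adjusted p of 0.05 in limma. Of the differences recomputed, 93 kept their direction and 17 reversed, and the cause was not tested. The other filters, the replicate block and the fit without a variance trend cannot change a difference, so their values kept direction by construction. The reversals came under quantile normalization and where 1 library was left out. Quantile normalization turned *H2-Eb1* to −0.060 and *Cd74* to −0.045, and gave 1 gene higher (*Itgax*) and 0 lower without overlap. Leaving out 1 library gave 0 to 2 genes with an unadjusted p under 0.05 (2, *Ciita* and *Itgax*, without Cont-IMQ replicate 1), 0 to 7 higher and 1 to 5 lower without overlap, where 33.2% to 38.9% of all genes were higher and 33.5% to 39.1% lower. The lone library left in a group is assumed to vary like the others. The differences then ran from −0.31 to 0.24 for *H2-Aa*, −0.32 to 0.25 for *H2-Ab1*, −0.22 to 0.27 for *H2-Eb1*, −0.16 to 0.47 for *H2-DMa*, −0.29 to 0.19 for *H2-DMb1*, −0.22 to 0.31 for *Cd74*, −0.25 to 0.61 for *Ciita* and −0.20 to 0.16 for *Cd207*. *Itgax* (0.094 to 0.61) and *Zbtb46* (−0.18 to −0.089) kept their direction. With the replicate block, 0 genes passed (limma, adjusted p from 0.474 for *Itgax* to 0.947 for *Cd207*), and the standard error of *H2-Ab1* went from 0.25 to 0.091. The replicate numbers pair the samples by number only, and the replicate 1 minus replicate 2 differences of the groups had a correlation of 0.0651 over all genes. The 0.3 limit within groups and the list values without a library were chosen after seeing the data.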

Other observations

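Some further antigen-presenting cell genes, chosen after their values were seen, had replicate 1 above replicate 2 in both groups. *Mgl2*, a lectin of dermal type 2 dendritic cells, had 26.5 and 10.4 FPKM in Cont-IMQ and 24.9 and 12.7 FPKM in 7KC-IMQ, replicate 1 first. *Cd209a*, a DC-SIGN homolog, had 6.82 and 3.91 FPKM in Cont-IMQ and 4.66 and 3.30 FPKM in 7KC-IMQ. *Ccl17*, a chemokine of skin dendritic cells, had 16.0 and 4.58 FPKM in Cont-IMQ and 26.8 and 14.2 FPKM in 7KC-IMQ. In contrast, *Adgre1*, the F4/80 gene of macrophages, had 49.0 and 64.3 FPKM in Cont-IMQ and 46.7 and 50.5 FPKM in 7KC-IMQ, with replicate 2 the higher in both groups. Of the 18 conventional dendritic cell genes, 9 had replicate 1 above replicate 2 in both groups, against 24.0% of all genes tested. In 3 of the 18 (*Batf3*, *Irf8* and *Klf4*) replicate 1 lay below replicate 2 in both groups, against 25.4% of all genes. *Irf8* had 5.75 and 6.43 FPKM in Cont-IMQ and 6.02 and 9.17 FPKM in 7KC-IMQ.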
